A study of Mus musculus with 22 samples.

Results

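The 8 genes described here encode the core of major histocompatibility complex (MHC) class II antigen presentation in the mouse: H2-Aa, H2-Ab1, H2-Eb1, Cd74, H2-DMa, H2-DMb1, Ciita and Ctss. They were taken by symbol from the 54532 genes of both count tables that the authors deposited, and all 8 were found and passed the filter on low counts in both. The tables hold bulk RNA sequencing of mouse retina and choroid, extracted together, in a model in which laser burns set off choroidal neovascularisation (CNV), vessel growth out of the choroid. The wild-type table has 4 control libraries from eyes without CNV and 4 libraries each from day 3, day 7 and day 14 after the laser. The protocol names adult C57BL/6J mice. The other table has 3 libraries from Rag2-/- mice, in which T and B cells do not form, and 3 from Rag2-/-γc-/- mice, which lack in addition the common cytokine receptor γ chain and with it natural killer (NK) cells. All 6 were taken at day 3 after the laser, so neither genotype has an uninjured control here. The stated aim was to follow NK cell genes after the burn and to compare the 2 knockout genotypes. One control, replicate 4, carries the title of an eye without CNV but a treatment label of laser-induced CNV, and it was kept as a control. Whether libraries of a group stem from different animals is not labelled, so p-values measure the spread between these libraries.

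MHC class II molecules carry peptides from endosomes to the cell surface and show them to CD4 T cells. In mice of the C57BL/6 type the surface molecule is I-A, an alpha chain from H2-Aa paired with a beta chain from H2-Ab1. H2-Eb1 encodes the beta chain of a related molecule, I-E. Cd74, the invariant chain, fills the groove while the molecule travels, cathepsin S (Ctss) cuts the invariant chain down to a short fragment, and H2-DM, made of H2-DMa and H2-DMb1, swaps that fragment for a peptide. Ciita is the transactivator without which the class II genes are barely transcribed. Dendritic cells, B cells and activated macrophages are the usual carriers, while resting microglia show little class II.

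The promoter windows of 3 class II genes shared a pair of patterns that the Ctss window did not hold. H2-Ab1, Cd74 and Ciita had no window to read. RefSeq windows of 300 bases around the transcription start were read for H2-Aa (chr17:34287774-34288073, minus strand), H2-Eb1 (chr17:34305617-34305916, plus strand), H2-DMb1 (chr17:34152941-34153240, plus strand) and Ctss (chr3:95526536-95526835, plus strand), all on GRCm38.p6, the build known as mm10. They are printed 5′ to 3′ on the gene's strand because they hold the letters by which RFX, NF-Y and interferon-activated factors are known to read such genes. In the first 3, capitals mark the core of the Y box, ATTGG on either strand, which NF-Y binds, and the pattern CTNNNAAC upstream of it, which lies in the X box that RFX binds. In Ctss, capitals mark the core of an interferon-stimulated response element, a pair of GAAA motifs with 2 bases between them.
H2-Aa: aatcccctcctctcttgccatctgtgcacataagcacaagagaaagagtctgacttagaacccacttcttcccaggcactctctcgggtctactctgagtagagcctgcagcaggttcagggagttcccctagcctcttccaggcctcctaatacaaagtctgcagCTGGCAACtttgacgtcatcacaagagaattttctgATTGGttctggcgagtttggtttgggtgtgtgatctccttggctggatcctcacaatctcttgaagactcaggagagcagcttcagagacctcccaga
H2-Eb1: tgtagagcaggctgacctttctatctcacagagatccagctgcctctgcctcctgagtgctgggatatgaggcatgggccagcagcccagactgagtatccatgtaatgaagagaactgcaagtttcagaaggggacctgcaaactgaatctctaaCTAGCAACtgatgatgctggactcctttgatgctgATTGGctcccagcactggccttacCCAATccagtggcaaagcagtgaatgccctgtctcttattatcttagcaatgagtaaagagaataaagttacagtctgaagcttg
H2-DMb1: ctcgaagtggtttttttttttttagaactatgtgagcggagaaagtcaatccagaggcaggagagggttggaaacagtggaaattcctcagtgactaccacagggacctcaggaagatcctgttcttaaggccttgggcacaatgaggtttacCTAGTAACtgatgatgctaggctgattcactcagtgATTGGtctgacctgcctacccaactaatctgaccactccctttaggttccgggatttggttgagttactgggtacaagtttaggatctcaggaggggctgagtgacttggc
Ctss: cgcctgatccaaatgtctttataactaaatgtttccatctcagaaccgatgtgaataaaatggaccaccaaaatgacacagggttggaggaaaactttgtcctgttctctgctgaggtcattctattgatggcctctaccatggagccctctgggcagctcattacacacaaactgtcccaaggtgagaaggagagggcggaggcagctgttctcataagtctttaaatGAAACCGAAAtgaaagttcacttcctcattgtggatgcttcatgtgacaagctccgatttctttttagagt
The 3 class II promoters each held the X pattern upstream of the Y core on the gene's strand, with 28 bases between them in H2-Aa and H2-DMb1 and 27 in H2-Eb1. Of the 32851 RefSeq promoter windows of this length, 0.901% held that pair 15 to 35 bases apart, and 37.41% held a Y core alone. The X pattern was written after these promoters had been read, so its presence in them is a description. The Ctss window held neither, and it held the interferon element core, which 3.443% of the windows hold on either strand. A match names letters, not a bound site, and the 5 members matched in the promoter table include H2-DMa, whose windows lie 9664 and 12350 bases from its deposited start and are not shown.

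On mm10, H2-Aa (17:34282744-34287827), H2-Ab1 (17:34263209-34269418), H2-Eb1 (17:34305877-34316199), H2-DMa (17:34135182-34139101) and H2-DMb1 (17:34153072-34160230) are protein-coding genes of the MHC on chromosome 17, as deposited. Ciita lies at 16:10480059-10528418 and Ctss at 3:95526786-95556403. The Ciita gene overlaps Dexi on the other strand, which had 7144 counts in the wild-type table against 346 for Ciita, and the strand setting of the counting is not given in the sources used here, so Ciita values are uncertain. H2-DMb1 shares 22.65% of its 50-base words with its neighbour and close copy H2-DMb2, so reads of that pair may be split between them. Among the other members, the share of 50-base words found in another gene was at most 0.488%.

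Depth ran from 15033983 to 16848254 counts in the wild-type libraries and from 27227847 to 30315086 counts in the Rag2-/- set, where 3 counts correspond to 0.178 to 0.2 and 0.099 to 0.11 counts per 1000000 counts (CPM). Markers of rods and of the pigment epithelium were present in all 22 libraries: the summed level of 5 rod markers was 12576 CPM or more and that of 5 pigment epithelium markers 1085 CPM or more. The wild-type libraries also held tissue from the front of the eye. Their 7 cornea and conjunctiva markers, mostly keratins, summed to between 2312 and 30769 CPM, and their 10 lens markers to between 0.838 CPM (day 7 replicate 2) and 135632 CPM (day 14 replicate 1). In the Rag2-/- set the cornea and conjunctiva markers summed to at most 7.03 CPM, and the lens markers to between 95.2 and 8091 CPM, a range found within the Rag2-/-γc-/- libraries alone. In bulk RNA, fewer cells of a type and less RNA per cell cannot be told apart.

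In uninjured eyes the class II genes were transcribed at a low level, and the order of their levels per length was taken from the deposited FPKM values (fragments scaled by gene length and library depth). Cd74 had 11.7 ± 1.70 FPKM (SD, n = 4) and Ctss 10.5 ± 2.67. The chains followed with 6.17 ± 1.43 for H2-Eb1, 4.89 ± 1.16 for H2-Ab1 and 4.68 ± 0.921 for H2-Aa. H2-DMa had 1.93 ± 0.625, H2-DMb1 1.40 ± 0.289 and Ciita 0.177 ± 0.0365 FPKM. Neighbours in this order overlapped from Cd74 down to H2-Aa, and so did the H2-DM pair, while the highest H2-DMa value (2.71 FPKM) was below the lowest chain value (3.20) and Ciita was below all.

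After the laser, Ctss was the member that rose, at day 3 and at day 7, and the 6 other class II genes apart from Ciita were higher in most day 3 libraries without passing the test. At day 3, 1 of 8 members was called higher and 0 lower, where 14.7% of 18657 tested genes were called (edgeR quasi-likelihood test, adjusted p under 0.05). At day 7 it was again 1 of 8, against 10.5% of genes. At day 14, 0 of 8 passed in edgeR, against 0.273% of genes, with 5 at an unadjusted p under 0.05, 2 called by DESeq2 and 0 by limma voom. The median log2 change of the 8 was 1.43 at day 3, 0.63 at day 7 and 1.13 at day 14, beside medians of 0.0088, 0.028 and 0.039 over all tested genes. These 3 comparisons share their controls.

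**Figure D1:**
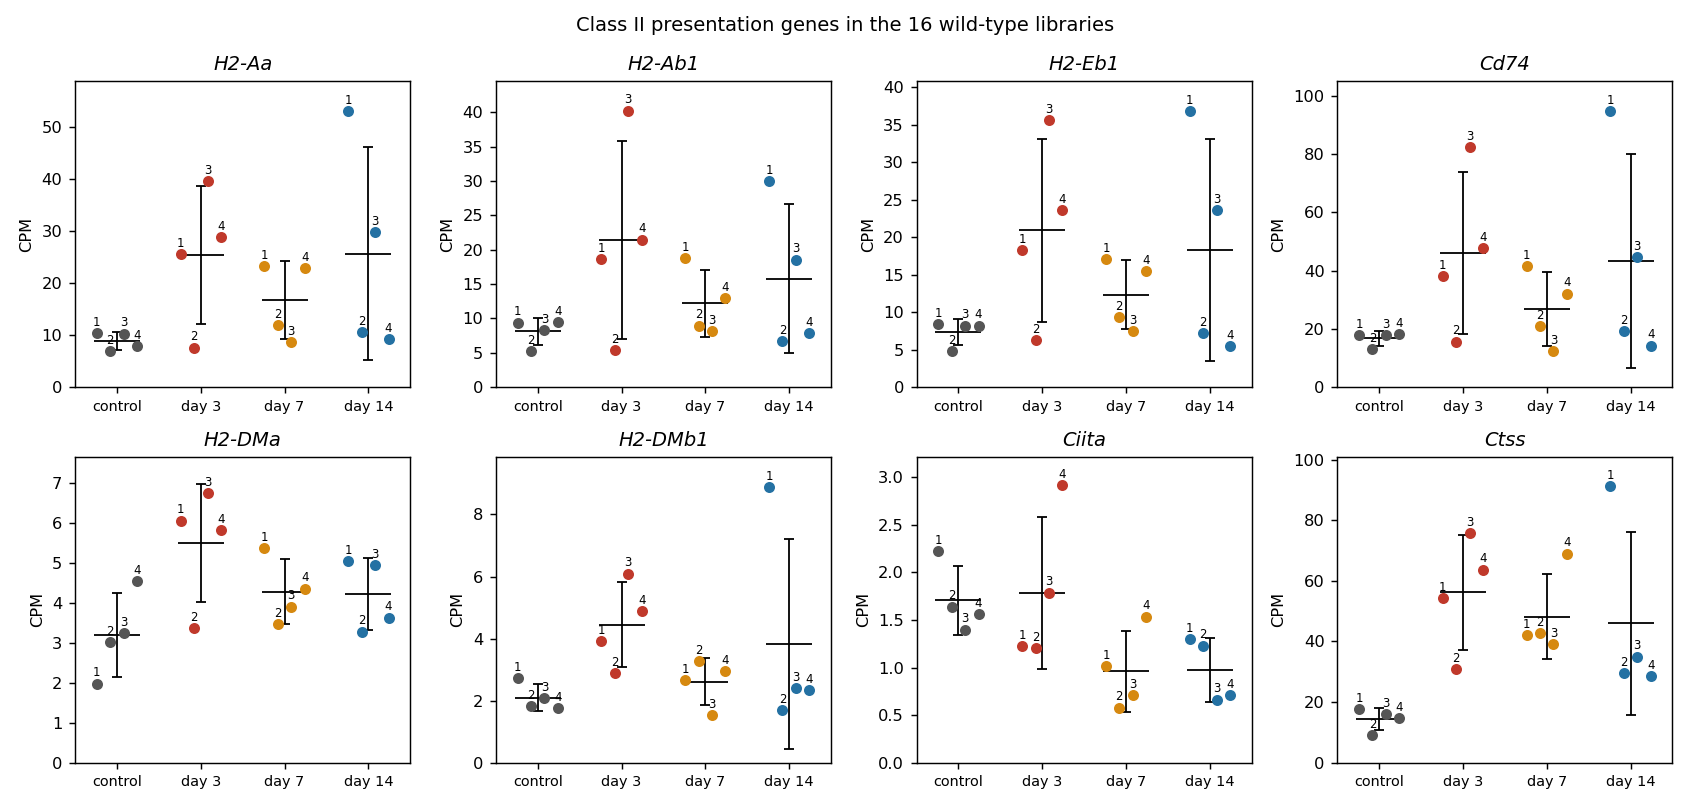
CPM (y axis, from 0) of each of the 8 genes in the wild-type libraries by group (x axis); points are libraries with their replicate number, and bars the mean ± SD of 4. All 12 Ctss points after the laser lie above the highest control, at 17.6 CPM, while the class II chains and Cd74 split within each group after the laser.

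Cathepsin S had 17.6, 9.18, 16.1 and 14.8 CPM in the 4 controls, in replicate order. It had 54.2, 30.9, 75.8 and 63.7 CPM at day 3. At day 7 it had 42.1, 42.7, 39.3 and 68.9 CPM, and at day 14 91.1, 29.5, 35 and 28.5. Every one of the 12 libraries after the laser was above every control, and the lowest of them, day 14 replicate 4, was 28.5 CPM. The log2 change was 1.96 ± 0.38 (SE, n = 4 against 4; 3.89-fold) at day 3 (edgeR, adjusted p = 0.0121) and 1.74 ± 0.38 (3.34-fold) at day 7 (adjusted p = 0.0183). At day 14 it was 1.67 ± 0.38 and did not pass (adjusted p = 0.0588; DESeq2 0.00153; edgeR without day 14 replicate 4, 0.0462). The day 7 call was lost without control replicate 2 (adjusted p = 0.0575), control replicate 3 (0.0629) or day 7 replicate 2 (0.0517), and with lens and cornea levels as covariates neither day passed (0.195 at day 3 and 0.0711 at day 7). The authors' deposited table gives adjusted p-values of 2.2e-10, 2.61e-10 and 0.00611 for Ctss at day 3, 7 and 14.

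The I-A alpha chain gene H2-Aa had 10.3, 6.95, 10.3 and 7.86 CPM in the controls. At day 3 it had 25.6, 7.60, 39.6 and 28.8 CPM. Replicates 1, 3 and 4 were above all controls and replicate 2 was inside the control range. At day 7 the values were 23.3, 11.9, 8.70 and 23.0 CPM and at day 14 53.1, 10.6, 29.8 and 9.21, so that 9 of 12 libraries after the laser were above all controls and each later group again held 1 inside the range. The log2 change was 1.52 ± 0.56 (SE) at day 3 (edgeR, adjusted p = 0.0712), 0.91 ± 0.55 at day 7 (0.259) and 1.53 ± 0.56 at day 14 (0.127).

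H2-Ab1, which encodes the partner beta chain, ranged from 5.25 to 9.42 CPM in the controls and was 18.6, 5.37, 40.3 and 21.5 CPM at day 3. Its log2 change was 1.40 ± 0.54 at day 3 (edgeR, adjusted p = 0.0817), 0.59 ± 0.54 at day 7 (0.452) and 0.96 ± 0.54 at day 14 (0.273). H2-Eb1 ranged from 4.79 to 8.35 CPM in the controls and was 18.2, 6.22, 35.6 and 23.6 CPM at day 3, a log2 change of 1.5 ± 0.57 (adjusted p = 0.0795). In both genes day 3 replicate 2 lay inside the control range and replicate 3 was the highest. At day 7 and day 14, H2-Eb1 had log2 changes of 0.74 ± 0.57 (0.373) and 1.31 ± 0.57 (0.179).

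Cd74 repeated the chains library by library. It had 17.9, 13, 17.8 and 18.1 CPM in the controls and 38.1, 15.6, 82.4 and 47.7 CPM at day 3. At day 7 it had 41.5, 20.9, 12.5 and 32.1 CPM and at day 14 94.7, 19.3, 44.5 and 14.3. Day 3 replicate 2 and day 14 replicate 4 were inside the control range, and day 7 replicate 3 was below it. The log2 change was 1.46 ± 0.57 (SE, n = 4 against 4; 2.75-fold) at day 3 (edgeR, adjusted p = 0.083), 0.68 ± 0.56 at day 7 (0.408) and 1.37 ± 0.57 at day 14 (0.163). Without day 14 replicate 1, the day 14 log2 change was 0.66 for Cd74, 0.92 for H2-Aa, 0.47 for H2-Ab1, 0.73 for H2-Eb1 and 1.12 for Ctss.

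The H2-DM genes had smaller log2 changes at day 3 than the chains. H2-DMa, the alpha chain, had 1.98, 3.02, 3.24 and 4.55 CPM in the controls and 6.06, 3.38, 6.75 and 5.83 CPM at day 3, with replicate 2 again inside the control range. Its log2 change of 0.78 ± 0.27 did not pass (edgeR, adjusted p = 0.0614). H2-DMb1, the beta chain, had 2.72, 1.84, 2.10 and 1.75 CPM in the controls and 3.92, 2.90, 6.09 and 4.88 CPM at day 3. These groups did not overlap, but the log2 change of 1.08 ± 0.45 did not pass (adjusted p = 0.102). In all, 2 of 8 members, Ctss and H2-DMb1, had day 3 values that did not overlap the controls, as did 40.3% of tested genes. At day 7 it was 1 of 8 (Ctss), against 29.7% of genes, and at day 14 2 of 8 (Ctss higher, Ciita lower), against 19.5%. At day 14, H2-DMb1 had 8.88 CPM in replicate 1 and 1.70 to 2.42 in the other 3, and its log2 change of 0.85 ± 0.45 (adjusted p = 0.251) was 0.048 without that library.

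Ciita was the exception in direction. It had 2.23, 1.64, 1.40 and 1.56 CPM in the controls and 1.22, 1.21, 1.79 and 2.91 at day 3, a log2 change of 0.06 ± 0.36 (edgeR, adjusted p = 0.909), whose sign turned under 3 alternatives. It had 1.01, 0.580, 0.710 and 1.53 CPM at day 7 and 1.30, 1.23, 0.664 and 0.714 at day 14. All 4 day 14 values lay below the controls, and 3 of 4 at day 7. The log2 changes were -0.83 ± 0.37 at day 7 (adjusted p = 0.142) and -0.80 ± 0.37 at day 14 (0.198), and neither passed.

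**Figure D2:**
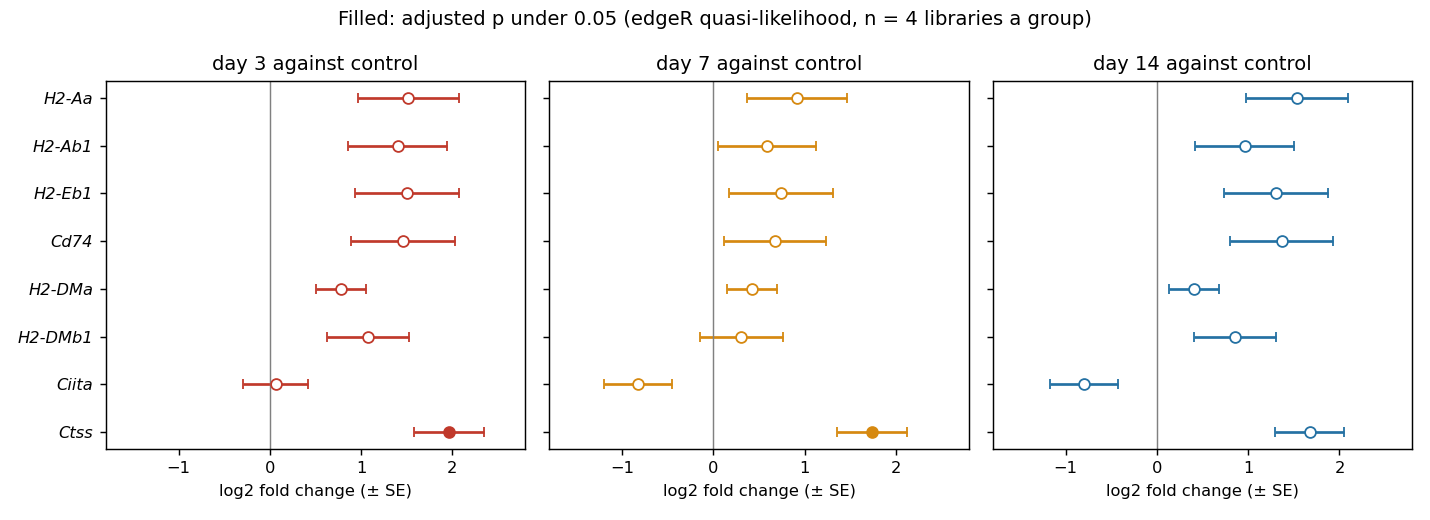
Log2 fold change against control (x axis) of each gene (y axis) at day 3, day 7 and day 14, with the SE of the edgeR model, from 4 libraries a group; filled circles passed an adjusted p under 0.05. Ctss is filled at day 3 (1.96) and day 7 (1.74), and Ciita lies left of 0 at day 7 and day 14.

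The day 3 count of 1 of 8 depended on how the libraries were fitted: DESeq2 called 6 members, edgeR fitted to the control and day 3 libraries alone called 5, edgeR without day 3 replicate 2 called 5, and edgeR with lens and cornea levels as covariates called 0. In that last fit the day 3 log2 change was 0.32 for H2-Aa, 0.20 for H2-Ab1, 0.38 for H2-Eb1, 0.13 for Cd74, 0.54 for H2-DMa, 0.17 for H2-DMb1 and 1.24 for Ctss. The authors' deposited table has 7 of 8 members under 0.05 at day 3 (all but Ciita), 3 at day 7 (Ctss, H2-Aa and H2-Eb1) and 1 at day 14 (Ctss).

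Between the times after the laser no member passed. From day 3 to day 7, 0 of 8 members were called by edgeR, DESeq2 or limma voom, as were 0% of genes in edgeR, and 1 member (Ciita, log2 change -0.89 ± 0.37, adjusted p = 0.786) had an unadjusted p under 0.05. From day 3 to day 14, 0 of 8 were called by each tool, with 0.00536% of genes called in edgeR, and Ciita (-0.87 ± 0.37, adjusted p = 0.698) again was the member at an unadjusted p under 0.05. Cd74 differed by -0.78 ± 0.56 and -0.09 ± 0.55 in these comparisons. Ctss differed by -0.22 ± 0.37 and -0.29 ± 0.37.

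Within groups, Cd74 and the chains were high and low in the same libraries, and Ctss followed less tightly. Over the 16 libraries, with each group centred on its mean log2 CPM, Cd74 correlated with H2-Aa at Pearson r = 0.976 (within-group permutation p = 2e-05, adjusted over 13 relations 0.00013; Spearman rho 0.974, permutation p = 4e-05, adjusted 0.000173), and r was 0.965 without the 2 libraries farthest from the median. With H2-Eb1 r was 0.977 (permutation p = 2e-05, adjusted 0.00013; rho 0.982, permutation p = 2e-05, adjusted 0.000173; 0.964 without 2). With Ctss r was 0.835 (permutation p = 0.00045, adjusted 0.00117; rho 0.771, permutation p = 0.0007, adjusted 0.00227; 0.697 without 2). With Ciita r was 0.463 (permutation p = 0.137, adjusted 0.162; rho 0.521, permutation p = 0.0976, adjusted 0.127; 0.481 without 2). Per length, the ratio of Cd74 to H2-Aa stayed between 1.86 and 3.07 in all 16 libraries. The ratio of Cd74 to Ctss ran from 0.980 to 1.36 in the controls, from 0.487 to 1.05 at day 3, from 0.307 to 0.950 at day 7 and from 0.483 to 1.22 at day 14.

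**Figure D3:**
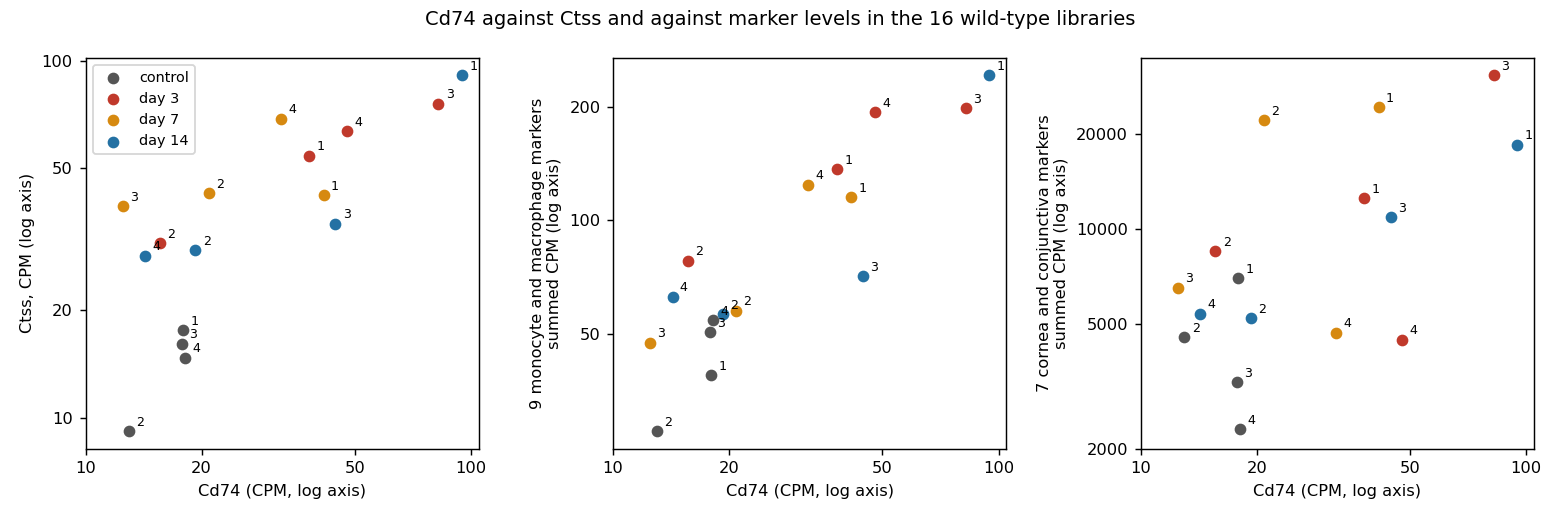
Cd74 (x axis, CPM, log scale) against Ctss and against the summed CPM of 9 monocyte and macrophage markers and of 7 cornea and conjunctiva markers (y axes, log scale) in the 16 wild-type libraries; points are libraries with their replicate number, coloured by group. Day 3 replicate 3 and day 14 replicate 1 are highest for Cd74, at 82.4 and 94.7 CPM, and Ctss after the laser is above the controls also where Cd74 is not.

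Markers of other cells moved with these values. Cd74 correlated over the same centred libraries with a score of monocyte and macrophage markers at r = 0.869 (permutation p = 0.00028, adjusted 0.00091; rho 0.826, permutation p = 0.00091, adjusted 0.00237; 0.830 without 2) and with a microglia score at r = 0.170 (permutation p = 0.668, adjusted 0.668; rho -0.065, permutation p = 0.844, adjusted 0.914; -0.046 without 2). With a cornea and conjunctiva score r was 0.588 (permutation p = 0.0533, adjusted 0.0693; rho 0.453, permutation p = 0.151, adjusted 0.178; 0.613 without 2). The 9 monocyte and macrophage markers summed to 27.7 to 54.5 CPM in the controls, 78.2 to 198 at day 3, 47.4 to 124 at day 7 and 56.4 to 242 at day 14. At day 3, 5 of the 8 tested passed, all higher, among them Ccr2, the receptor that brings monocytes from the blood (log2 change 3.27 ± 0.73, adjusted p = 0.0174), and Cd68, a lysosomal protein of macrophages (2.04 ± 0.40, adjusted p = 0.0121). The 3 general leukocyte markers Ptprc, Laptm5 and Coro1a all rose at day 3, from a sum of 14.5 to 18.8 CPM in the controls to 26.1 to 58.7. Of 6 microglia markers, Cx3cr1 alone passed at day 3 (1.42 ± 0.27, adjusted p = 0.011). All 6 had a log2 change above 0 at day 3, with a median of 0.83. They summed to 30.7 to 35.8 CPM in the controls, 56.9 to 71.4 at day 3, 48.0 to 60.5 at day 7 and 33.1 to 115 at day 14. Sall1, which is in this list, had 45.1 CPM in day 14 replicate 1, where lens markers summed to 135632 CPM. It had 0.902 CPM in day 7 replicate 2, where they summed to 0.838. The part of lens tissue in the microglia score and sums was not tested. The part of all the cells named here in the class II values was not tested.

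Dendritic cell markers also went with Cd74 within groups, at r = 0.641 (permutation p = 0.0159, adjusted 0.023; rho 0.609, permutation p = 0.0414, adjusted 0.0598; 0.555 without 2), and rod markers went against it, at r = -0.732 (permutation p = 0.0113, adjusted 0.0184; rho -0.585, permutation p = 0.0412, adjusted 0.0598; -0.541 without 2). The 8 dendritic cell markers summed to 10.4 to 11.1 CPM in the controls and 8.93 to 15.1 at day 3, and none of the 5 tested passed in edgeR at any day. Itgax, which encodes CD11c, had the smallest p-value among them, with a log2 change of 2.04 ± 0.81 at day 3 (adjusted p = 0.0902), 2.59 ± 0.81 at day 7 (0.0535) and 2.63 ± 0.81 at day 14 (0.0948). Of the 5 tested, 4 had a log2 change above 0 at day 3 and at day 7, and Flt3 went the other way. Flt3 had a mean of 3.22 CPM in the controls, 1.80 at day 3 and 2.02 at day 7. Its day 7 values, 1.10 to 2.40 CPM, all lay below the controls, 2.48 to 3.67. The 5 B cell markers summed to at most 3.60 CPM in any wild-type library and the 6 T cell markers to at most 7.48. Of these, Cd8a passed at day 3 (1.90 ± 0.61, adjusted p = 0.0483). The 6 NK cell markers summed to at most 7.56 CPM, most of it Eomes. Eomes had a mean of 6.35 CPM in the controls and did not pass (-0.93 ± 0.48 at day 3, adjusted p = 0.169). In the Rag2-/-γc-/- libraries, from mice without NK cells, Eomes had 7.12, 9.04 and 6.62 CPM. Which cells carried it was not tested. In the cornea and conjunctiva list, 3 of 7 genes rose at day 3 (Krt14, Krt13 and Krt4), and in the lens list 4 of 10. Cornea and conjunctiva markers summed to 8508 CPM in day 3 replicate 2 and 30769 in replicate 3, the libraries with the lowest and the highest day 3 Cd74, and to 4439.6 in replicate 4, where Cd74 was 47.7 CPM. With day 3 replicate 3 and day 14 replicate 1 both left out, edgeR called 2 members at day 3, Ctss and H2-DMb1.

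Of 9 other genes of endosomal processing, the cathepsins Ctsl, Ctsh, Ctsc and Ctsz rose at day 3 and none passed at day 7 or day 14, and all 9 had a log2 change above 0 at each time, with a median of 0.81 at day 3 beside 0.0088 over all genes. Ctsl, cathepsin L, which cuts the invariant chain in thymic epithelium, went from 178 to 565 CPM (log2 change 1.67 ± 0.48, adjusted p = 0.0361). Ctsh, an aminopeptidase, rose by 1.47 ± 0.40 (0.0307), Ctsc, which activates serine proteases of granules, by 1.25 ± 0.33 (0.0291), and Ctsz, a carboxypeptidase, by 0.81 ± 0.25 (0.0431). At day 7 the smallest p-values were those of Ctsh (1.09 ± 0.39, adjusted p = 0.0809) and Ifi30, the thiol reductase of endosomes (0.89 ± 0.35, 0.103). At day 14 they were those of Ctsl (1.40 ± 0.48, 0.112) and Ctsh (1.14 ± 0.40, 0.117).

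None of the 7 genes of factors that read the class II promoter was called higher at any time after the laser. Among them, Rfx5, the RFX subunit that contacts the X box printed above, fell at day 3. It had 35.8, 37.9, 37.0 and 35.6 CPM in the controls and 26.6, 28.4, 23 and 21 at day 3, a log2 change of -0.56 ± 0.16 (edgeR, adjusted p = 0.0349), with no overlap. Nfya, an NF-Y subunit that binds the Y box with its partners, fell at day 7, from 44.5 to 50.4 CPM in the controls to 33.5 to 40.3 (-0.36 ± 0.08, adjusted p = 0.021). At day 14 its log2 change was -0.35 ± 0.08 and that of Rfx5 -0.41 ± 0.16, and neither passed (adjusted p = 0.0641 and 0.148). The remaining 5 (Rfxap, Rfxank, Nfyb, Nfyc and Creb1) were not called at any time.

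Interferon gamma is the classical inducer of Ciita, and its own transcript was at or near 0. Ifng was at 0 counts in 11 of the 16 wild-type libraries and at most 0.121 CPM in the others, under the level of 3 counts. Irf8, a factor of the myeloid lineage, rose at day 3 from a mean of 2.49 to 8.15 CPM (1.71 ± 0.37, adjusted p = 0.0164). At day 14 the log2 change of Irf8 was 1.29 ± 0.37 and did not pass (0.0832).

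Partners of class II at the surface gave 1 call. Lag3, which encodes a receptor that binds class II on T and NK cells, rose at day 7. It had 2.66, 3.35, 3.18 and 4.29 CPM in the controls and 5, 9.34, 6.22 and 7.86 at day 7 (log2 change 1.08 ± 0.23, edgeR, adjusted p = 0.0164), beside the T cell sums given above. The other receptor, Cd4, had a log2 change of -0.40 ± 0.48 (0.575). In the Rag2-/-γc-/- libraries, from mice without T, B and NK cells, Lag3 had 4.36, 4.50 and 3.54 CPM. It had 4.75, 4.08 and 3.91 CPM in the Rag2-/- libraries. Which cells carried the Lag3 transcript was not tested. None of the 5 genes of the costimulation list, which includes the inhibitory ligand gene Cd274, passed at any time. Cd86, a ligand of CD28, had the smallest p-value at day 3, with a mean of 0.462 CPM in the controls and 1.42 at day 3 and no overlap (1.60 ± 0.59, adjusted p = 0.074), followed by Cd274 (1.13 ± 0.56, 0.152). At day 7 they were Icosl (1.21 ± 0.54, 0.14) and Cd80 (-0.82 ± 0.41, 0.176), and at day 14 Cd86 (1.27 ± 0.60, 0.205) and Icosl (0.83 ± 0.54, 0.34).

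The genes that remove class II from the surface or steady it there gave no call. March1, whose ubiquitin ligase removes surface class II, had a mean of 65.8 CPM in the controls and 46.0 at day 3, a log2 change of -0.52 ± 0.29 (edgeR, adjusted p = 0.203), and March8 went from 88.6 to 77.6 CPM (-0.19 ± 0.09, 0.142). Neither had day 3 values overlapping the controls. At day 7 the log2 changes were -0.47 ± 0.29 for March1 (0.272) and -0.21 ± 0.09 for March8 (0.137), and at day 14 -0.49 ± 0.29 (0.304) and -0.18 ± 0.09 (0.239). The 4 genes of H2-DO and of other non-classical class II chains (H2-DMb2, H2-Oa, H2-Ob and H2-Eb2) did not pass the filter in the wild-type table and summed to at most 1.16 CPM.

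By likeness of pattern, the genes nearest to the mean log2 CPM of the 8 members over the 16 wild-type libraries were not antigen presentation genes. The 10 with the highest Pearson r, which ran from 0.933 to 0.957, were Col14a1, C1s1, Bpifb1, Ctsk, Casp12, Cd34, Dpep1, Cyba, Clec3b and Dab2. Col14a1 encodes a fibril-associated collagen, C1s1 a protease of the first complement component, Ctsk the collagen-cutting cathepsin K and Cyba a subunit of the phagocyte oxidase. Col14a1 had means of 3.26 CPM in the controls, 10.4 at day 3, 6.09 at day 7 and 6.69 at day 14. In the 6 libraries of the Rag2-/- set, the r of Cyba was 0.910 and that of Dab2 0.916, while that of Ctsk was 0.111. Tissue makeup differed between these libraries, as the lens and cornea sums above show, and its part in this pattern was not tested. The r values are descriptions of single genes chosen for being high.

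Before the knockout comparison, the labels were checked. Il2rg, which encodes the γ chain, had 0 counts in the 3 Rag2-/-γc-/- libraries, which allows at most 0.11 CPM each, and 1.22, 2.08 and 0.927 CPM in the Rag2-/- libraries (edgeR, adjusted p = 0.0216). Rag2 is at or near 0 in both tables, so it checks nothing. The class II locus itself differed between the tables. H2-Ea-ps, the gene of the I-E alpha chain, is not transcribed in mice with the MHC of C57BL/6, and it had 0 counts in all 16 wild-type libraries. In the Rag2-/- libraries it had 1.52, 7.60 and 2.48 CPM and in the Rag2-/-γc-/- libraries 5.44, 1.19 and 4.32, which was 33 to 227 counts a library. Per length this was 0.820 to 1.87 times the level of H2-Aa. The strain of the knockout mice is not given apart from the protocol's C57BL/6J, and reads were counted on the mm10 reference, so chains of another MHC type could be counted less completely, which was not tested. No test was therefore made between the 2 tables.

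**Figure D4:**
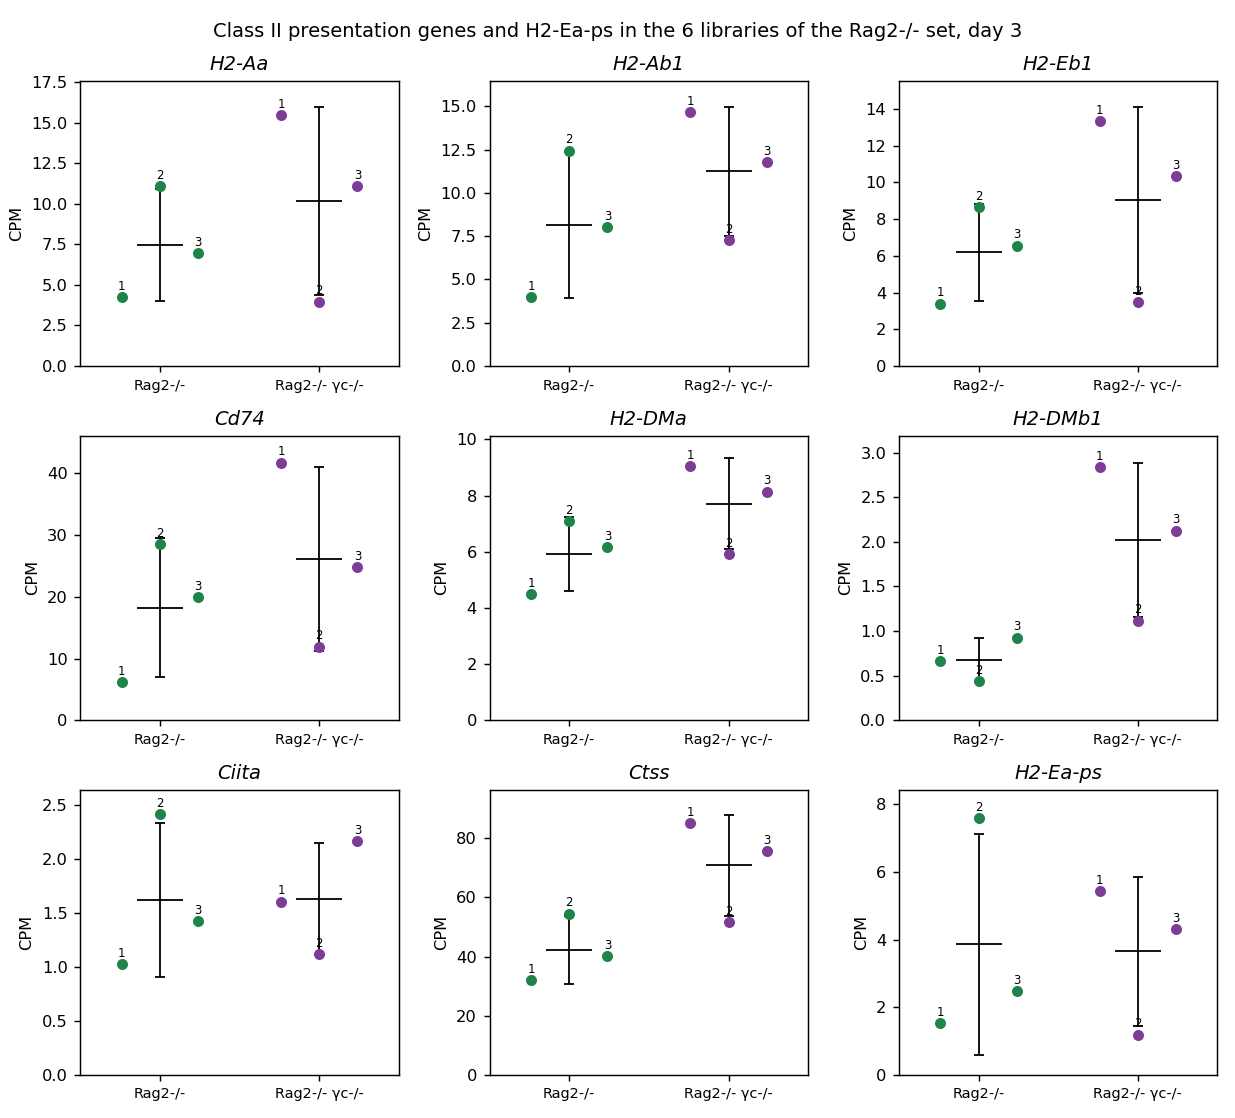
CPM (y axis, from 0) of the 8 genes and of H2-Ea-ps in the 3 Rag2-/- and 3 Rag2-/-γc-/- libraries at day 3 after the laser (x axis); points are libraries with their replicate number, and bars the mean ± SD of 3. H2-Ea-ps is present in all 6, from 1.19 to 7.60 CPM, and H2-DMb1 alone among the 8 does not overlap between the genotypes.

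At day 3 after the laser no member differed between Rag2-/-γc-/- and Rag2-/- eyes past the threshold in edgeR. It called 0 of 8, against 0.465% of 18923 tested genes, with 2 at an unadjusted p under 0.05 (H2-DMb1 and Ctss). DESeq2 called these 2 and limma voom 0. The values of 1 of 8 members, H2-DMb1, did not overlap between the genotypes, as was the case for 22.1% of genes. All 8 log2 differences were above 0, with a median of 0.49 beside 0.0040 over all genes.

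H2-DMb1 had 0.660, 0.435 and 0.927 CPM in the Rag2-/- libraries and 2.83, 1.12 and 2.12 in the Rag2-/-γc-/- libraries. The log2 difference was 1.58 ± 0.43 (SE, n = 3 against 3; edgeR, adjusted p = 0.159; DESeq2 0.0352; edgeR without a filter on low counts 0.0249). Ctss had 31.9, 54.5 and 40.0 CPM in Rag2-/- and 85.0, 51.7 and 75.8 in Rag2-/-γc-/-, where replicate 2 was inside the other range (0.75 ± 0.27, adjusted p = 0.307; DESeq2 0.0082). Cd74 had 6.24, 28.5 and 20 CPM against 41.7, 11.9 and 24.7, an overlap over most of the range (0.52 ± 0.74, 0.799). H2-Aa had 4.26, 11.1 and 6.95 CPM against 15.5, 3.96 and 11.1 (0.45 ± 0.58, 0.77), and Rag2-/-γc-/- replicate 2 held the lowest value of all 6. H2-Ab1 (0.46 ± 0.45, 0.682), H2-Eb1 (0.55 ± 0.57, 0.707), H2-DMa (0.38 ± 0.23, 0.469) and Ciita (0.01 ± 0.39, 0.995) overlapped as well.

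In Rag2-/-γc-/- eyes, 3 of 9 endosomal processing genes were higher and none lower: Ctsz by 0.55 ± 0.08 on the log2 scale (edgeR, adjusted p = 0.0339), Ctsl by 0.37 ± 0.06 (0.038) and Ctsh by 0.84 ± 0.14 (0.0469). All 9 were above 0, with a median of 0.55. The 3 leukocyte markers summed to 26.3 to 41.6 CPM in Rag2-/- and 44.5 to 64.9 in Rag2-/-γc-/- eyes, the microglia markers to 44.6 to 50.5 and 67.2 to 73.0, and the monocyte and macrophage markers to 139 to 178 and 147 to 462, and their part in these differences was not tested. None of the transcription factor, costimulation, surface turnover and receptor lists gave a call. The smallest p-values in them were those of Rfx5 (-0.25 ± 0.09, 0.276), Cd40 (-0.89 ± 0.37, 0.317), March8 (-0.09 ± 0.06, 0.509) and Cd4 (0.27 ± 0.50, 0.848). Ifng had 0 counts in all 6 libraries.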

How the data were processed

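RNA from 22 mouse retina and choroid samples was sequenced in bulk; per the labels' protocols Novogene prepared the libraries. The authors deposited raw counts per gene, made with featureCounts 1.5.0-p3 on mm10 per the submitters' processing notes. No aligner, annotation release or strand setting is named in the sources used here. The deposited FPKM values equal count over length times 1 constant per library and served only for levels per length. The authors' deposited log2 fold changes and adjusted p-values are quoted as theirs. Each count table was fitted separately with edgeR 4.0.16 in R 4.3.3 (filterByExpr minimum count 10 and total 15, TMM factors, robust quasi-likelihood test, Benjamini-Hochberg over all tested genes, threshold 0.05), over all 16 wild-type or all 6 Rag2-/- set libraries, with group means only and no replicate block. CPM use the TMM factors, and the floors cover counting error only. Each SD is the spread between libraries of a group, and each SE comes from the edgeR quasi-likelihood fit, which includes that spread. On simulated counts with 200 genes changed by log2 2, the day 3 and knockout fits recovered 95% and 98% of them. The simulation gave every gene the same dispersion of 0.05 and drew no differences in tissue makeup between libraries. It therefore does not say how often changes of the members, with their own spread, would be called. The members and gene lists were chosen with earlier results of these data known. All members were named, with up to 5 called genes of each list by smallest p, or 2 where none was called, and the 10 genes most like the members. Alternatives were DESeq2 1.42.0, voom of limma 3.58.1, no TMM, no filter, the compared groups alone, marker covariates, the block and each library left out; 2 pairs of libraries left out together were chosen after seeing the data. Permutation tests drew 100000 rearrangements within groups, two-sided. Promoters come from RefSeq (GRCm38.p6). Results that need items withheld from this text are not reported here.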

Additional observations from a re-analysis of the deposited data

Results flagged for a closer look

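In 5 of the 32 sets of 4 wild-type libraries (8 genes in 4 groups), 1 library stood apart from the other 3 by a gap that filled more of the group's range than Dixon's 95% critical value, which chance gives in about 1 group in 20. Control replicate 2 was low for H2-Eb1, at 4.79 CPM where the other controls had 8.19 to 8.35, and for Cd74, at 13 CPM beside 17.8 to 18.1. Day 14 replicate 1 was high for H2-DMb1, at 8.88 CPM beside 1.70 to 2.42, and for Ctss, at 91.1 CPM beside 28.5 to 35. Day 7 replicate 4 was high for Ctss, at 68.9 CPM beside 39.3 to 42.7. Day 14 replicate 1 also had the highest summed lens markers of all libraries, 135632 CPM, and its part in these values was not tested.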

How the results depend on the processing

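The number of members called was 1 at day 3, 1 at day 7 and 0 in the other 4 comparisons. With DESeq2 it was 6 at day 3, 2 at day 14 and 2 between the genotypes, and without a filter on low counts 1 between the genotypes. Fitted on the groups compared alone it was 5 at day 3, and with lens and cornea covariates 0 at day 3 and 0 at day 7. With day 3 replicate 3 and day 14 replicate 1 left out it was 2 at day 3, and with day 7 replicate 2 and day 14 replicate 1 left out 5 at day 3 and 1 (H2-DMb1, lower) from day 3 to day 14; both settings were chosen after seeing the data. Leaving out 1 library at a time gave 1 to 5 at day 3, 0 to 1 at day 7 and 0 to 1 at day 14. With the replicate block it was 1 at day 3, 1 at day 7 and 0 elsewhere, and genes called at day 3 went from 2749 to 2897. Same-numbered deviations correlated from -0.067 to 0.301 at day 3, and 2 of 4 libraries correlated best with their own number. With 4 libraries a group, these values cannot decide whether the numbers pair the libraries.

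Changes of sign were in values that did not pass. With lens and cornea covariates the log2 change was -0.31 for H2-Ab1, -0.089 for H2-Eb1, -0.30 for Cd74 and -0.35 for H2-DMb1 at day 7, -0.014 for H2-Ab1 at day 14, -0.23 for Ciita at day 3, 0.086 for Ctss from day 3 to day 7 and 0.076 for Cd74 from day 3 to day 14. Ciita at day 3 was -0.012 with voom, and between the genotypes -0.0033 without TMM. H2-Aa from day 3 to day 14 was 0.015, but -0.048 without TMM, -0.15 with voom, -0.0086 without a filter, -0.076 with the replicate block, -0.0025 on the groups alone and -0.32 and -0.61 in the settings added after seeing the data. With 1 library left out, values from day 3 to day 14 ran from -0.61 to 0.31 for H2-Aa, -0.95 to 0.057 for H2-Ab1, -0.78 to 0.19 for H2-Eb1, -0.81 to 0.35 for Cd74 and -1.04 to 0.026 for H2-DMb1, and Ciita ran from -0.28 to 0.22 at day 3 and -0.25 to 0.41 between the genotypes. The cause of these moves was not tested, apart from the smaller number of libraries where some were left out. Depth limits Ciita, which had 346 counts over the 16 wild-type libraries.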

Other observations

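The ratio of the H2-DM chains is given side by side for the 2 sets, with no test. Per length, H2-DMa was 0.515 to 2.35 times H2-DMb1 in the 16 wild-type libraries and 2.89 to 14.8 times in the 6 libraries of the Rag2-/- set. Within that set it was 6.01 to 14.8 times in Rag2-/- and 2.89 to 4.79 times in Rag2-/-γc-/- libraries. The close copy H2-DMb2 had 0 to 0.728 CPM in the wild-type libraries and 0 to 0.536 CPM in the Rag2-/- set. The library with the largest ratio, Rag2-/- replicate 2, also had the most H2-DMb2 (0.536 CPM) and the most H2-Ea-ps (7.60 CPM) of the 6. Strain, table and handling cannot be told apart between the sets, and how reads of the 2 beta chain genes were divided was not tested.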
